A study of Mus musculus with 12 samples.

Results

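Gene expression was compared between 2 mouse kidney cell lines that carried different forms of human sex hormone-binding globulin (SHBG) and had both received testosterone. The comparison used the 3 arrays of testosterone-treated cells with wild-type SHBG and the 3 arrays of testosterone-treated cells with the S42L mutant, 6 of the 12 arrays of the series, chosen by their titles. Both lines derive from PKSV-PCT, an immortalized mouse line of the proximal convoluted tubule, transfected with SHBG cDNA in pRC/CMV, a vector in which a viral promoter drives constitutive expression. They were obtained by limiting dilution cloning and screened by the SHBG they secreted, and the S42L protein had no detectable steroid binding. All cells grew in medium with 2% fetal bovine serum, insulin, dexamethasone, selenium, transferrin, triiodothyronine, EGF and 20 mM glucose and received 100 nM testosterone for 24 h. The labels add 3 days in steroid-free medium, in wording that leaves its order relative to the hormone uncertain. The other 6 arrays held the same lines treated with 100 nM 5α-dihydrotestosterone (DHT), and no group went without androgen. Neither several clones per variant nor separate cultures are described, so variant and clone cannot be told apart, and each p-value rests on array-to-array spread that could be purely technical.

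SHBG is the plasma carrier of testosterone, DHT and estradiol, made by the liver and filtered or taken up by tubule cells. Androgens enter the cell and change transcription, and the mouse kidney is a classical androgen target in which many proximal tubule transcripts differ between the sexes. Testosterone can be converted in cells to DHT, the stronger ligand. The study concerned SHBG held inside proximal tubule cells and androgen action there, and the comparison under testosterone set cells whose SHBG can bind the hormone against cells whose SHBG cannot.

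Each array gave a bead signal for 45281 probes, with a mean signal between 560.2 and 707.4 and between 17314 and 19204 detected probes over the 12 arrays. Tests ran on 19480 probes, which stand for 10340 named genes. Signals were corrected for background, quantile-normalized and log2-transformed, and a difference is always wild-type minus S42L in log2 units, with an SE for 3 arrays against 3 whose variance was estimated over all 12 arrays. A gene was called at a limma p-value below 0.05 after Benjamini-Hochberg adjustment over all tested probes. The 6 arrays lay on 1 chip, with S42L cells in positions A to C and wild-type cells in positions D to F, so line and array position cannot be told apart. Wild-type replicates 2 and 3 scattered more around their group mean than the other arrays (root mean square deviation 0.229 and 0.263, against 0.135 to 0.191). The Shbg probe, designed for the mouse gene, was detected on 0 of 12 arrays and does not check the human transgene or the labels. Of 15 proximal tubule marker genes on the array, 8 were detected on all 6 testosterone arrays, among them Lrp2, Aqp1 and Hnf4a, while Slc34a1, Cubn and Slc22a6 were detected on 0 of 6.

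The 2 lines differed in a large share of the transcripts measured. Of 10340 genes, 2676 were called (25.9%), 1221 higher (11.8%) and 1455 lower (14.1%) in wild-type cells. Among them 401 (3.88%) differed at least 2-fold, 132 higher and 269 lower, and 13 and 34 differed at least 4-fold. The values of both groups did not overlap for 4162 genes (40.3%), including 2639 of the 2676 called. By probe, 4635 of 19480 were called (23.8%), 2235 higher and 2400 lower. This split depends on the scaling. With arrays scaled to a common median instead of quantile-normalized, 899 probes were higher and 3288 lower, so that 21.5% of calls were higher instead of 48.2%, and the median of all probes moved from 0.012 to -0.112. In bulk RNA, fewer cells of a kind and less RNA per cell cannot be told apart.

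The lowest transcripts in wild-type cells, relative to S42L cells, included those for a zinc importer, a matrix proteoglycan and a kidney transcription factor. Slc39a4, which encodes the zinc importer ZIP4, had normalised log2 signals of 5.32, 5.35 and 4.82 on the wild-type arrays and 10.29, 10.44 and 10.41 on the S42L arrays. All 3 S42L arrays were far above the wild-type arrays, where the probe was detected on 2 of 3, and the difference was -5.22 ± 0.17 (limma adjusted p = 2.1e-09). Dcn, encoding the small proteoglycan decorin, read 5.49, 5.92 and 6.02 in wild-type and 10.73, 10.62 and 10.46 in S42L cells. The wild-type arrays were low without overlap, at a difference of -4.80 ± 0.15 (adjusted p = 1.7e-09). Osr2, an odd-skipped zinc-finger factor of the developing kidney, stood at 6.17, 5.78 and 6.39 against 10.24, 10.24 and 10.36. Its groups were again widely apart, at -4.16 ± 0.14 (adjusted p = 2.1e-09).

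Cilium-associated and receptor genes followed in the same range. Capsl, a calcium-binding protein gene, read 7.12, 6.99 and 7.34 in wild-type and 11.13, 11.28 and 11.20 in S42L cells. It was detected on all 6 arrays, and the groups do not overlap (-4.05 ± 0.13, adjusted p = 1.7e-09). Fgfr2, a receptor for fibroblast growth factors, read 6.20, 6.15 and 6.31 against 9.66, 9.83 and 9.66. The replicates of each line lay close together, with a difference of -3.50 ± 0.12 (adjusted p = 2.1e-09). Cldn2, encoding the claudin that makes the proximal tubule's junctions permeable to cations, read 8.69, 8.77 and 8.32 against 11.76, 11.91 and 11.68. It remained clearly detected in wild-type cells while lying lower by -3.19 ± 0.14 (adjusted p = 3.2e-08). Nme5, a kinase-family gene of cilia, differed by -4.11 ± 0.15, Xlr4a by -3.49 ± 0.12 and Nrep by -3.00 ± 0.14, each detected on 1 of 3 wild-type arrays. Cyp2d22, a cytochrome P450, differed by -3.41 ± 0.14, Pard6g, a cell polarity gene, by -3.03 ± 0.18 and Tnnc2, a troponin C gene, by -2.71 ± 0.11.

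Genes undetected on all 3 wild-type arrays have only a lower bound, the fold against the detection limit of those arrays. Ppic, encoding cyclophilin C, read 9.71, 9.86 and 9.80 in S42L cells and was at least 25.5-fold lower in wild-type cells (adjusted p = 2.7e-10). Cfap58, a cilium and flagellum gene, was at least 7.78-fold lower, Gpc3, encoding the proteoglycan glypican 3, at least 5.47-fold, Sh3d21 at least 4.91-fold, Pdpn, encoding podoplanin, at least 4.47-fold and G6pc2, a glucose-6-phosphatase gene, at least 3.97-fold. In all, 90 genes called lower had such a bound, and 61 called higher were undetected on all 3 S42L arrays.

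The highest transcripts in wild-type cells included a cytochrome oxidase subunit, a glycosyltransferase and retinoid enzymes. Cox6a2, a cytochrome oxidase subunit otherwise found in striated muscle, read 7.77, 7.73 and 8.70 in wild-type and 4.37, 5.11 and 4.57 in S42L cells. Only 1 of the 3 S42L arrays detected it, and the difference was 3.39 ± 0.26 (adjusted p = 3e-06). B4galnt2, which adds N-acetylgalactosamine to glycans, read 8.74, 8.67 and 8.37 against 5.32, 5.92 and 5.78. All wild-type arrays were high, at 2.92 ± 0.16 (adjusted p = 2e-07). Adh7, an alcohol dehydrogenase that also oxidizes retinol, read 11.21, 11.17 and 11.56 against 9.0, 8.77 and 9.05. This gene was bright in both lines and higher by 2.37 ± 0.12 (adjusted p = 1.2e-07), and Rdh12, a retinol dehydrogenase, by 2.20 ± 0.15 (adjusted p = 1.5e-06).

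Tnfaip2, a gene induced by tumour necrosis factor, read 9.68, 9.76 and 10.23 in wild-type and 7.33, 7.30 and 7.68 in S42L cells. Wild-type cells were the higher on every array, by 2.45 ± 0.17 (adjusted p = 1.5e-06). Vcam1, an adhesion molecule for leukocytes, read 11.56, 11.62 and 11.06 against 9.47, 9.31 and 9.37. Its difference of 2.03 ± 0.15 (adjusted p = 2.9e-06) came without overlap, although wild-type replicate 3 was lower than the other two. Hmox1, encoding heme oxygenase 1, read 9.72, 10.18 and 9.23 against 8.08, 7.45 and 7.55. The wild-type values were spread but all higher, by 2.02 ± 0.25 (adjusted p = 0.00015). Tlcd2 differed by 2.61 ± 0.16, Anxa8, an annexin detected on 2 of 3 S42L arrays, by 2.58 ± 0.15, Gvin1, an interferon-inducible GTPase gene, by 2.15 ± 0.11, Sprr1a, of the small proline-rich proteins, by 2.14 ± 0.12 and Itgb7, an integrin subunit, by 2.03 ± 0.13. Of genes undetected in S42L cells, Prune2 was at least 7.76-fold higher (adjusted p = 9.2e-08) and Bsn, Shisal1, Scara5, Ncf4 and Uchl1 at least 2.12-fold to 2.85-fold.

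Of these 36 genes, 13 had another tested probe, and 14 of the 15 other probes were called in the same direction. The exception was the second probe of Scara5, at 0.19 (adjusted p = 0.61). All 15 other probes gave smaller differences than the brighter probe used here. The gap was small for Cldn2 (-3.06 against -3.19) and large for Slc39a4 (-1.40 against -5.22), Fgfr2 (-1.54 against -3.50) and Anxa8 (0.73 against 2.58).

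**Figure D1:**
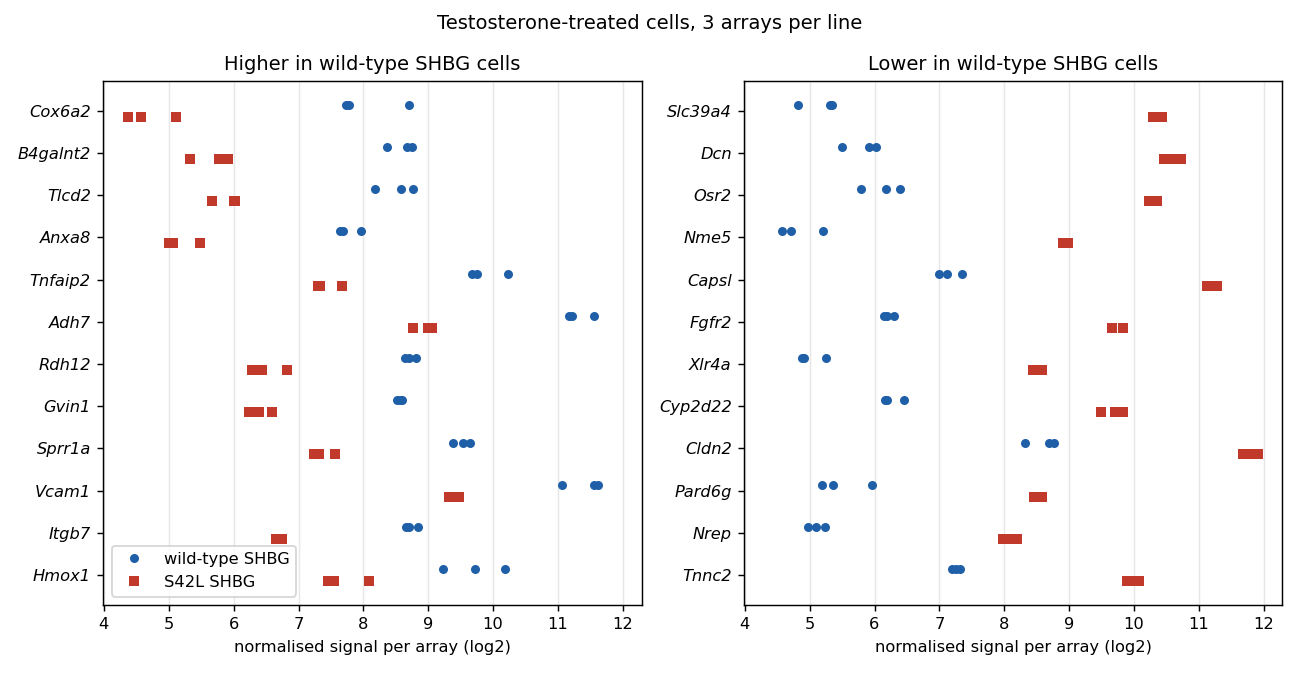
Normalised log2 signal on each of the 6 testosterone arrays for the 12 genes highest (left) and the 12 lowest (right) in wild-type against S42L cells, among called genes detected on at least 1 array of both groups. Circles are wild-type arrays and squares S42L arrays; the lines do not overlap for any gene shown, from Slc39a4 at -5.22 to Cox6a2 at 3.39.

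Called epithelial and proximal tubule transcripts were mostly lower in wild-type cells. Over all tested genes 11.8% were called higher and 14.1% lower, the shares to set beside the counts of each list below. Of 29 tested epithelial junction genes, 12 were called lower and 0 higher, with 1 higher without wild-type DHT replicate 2, and a median difference of -0.30, where the median over all tested genes was -0.001. Over leaving out each array in turn, 8 to 12 were lower. Beside Cldn2 the lower genes included Cdh1, encoding E-cadherin, which read 7.38, 7.57 and 7.69 in wild-type and 9.36, 9.27 and 9.28 in S42L cells. Every S42L array lay above every wild-type array, at -1.76 ± 0.13 (adjusted p = 2.1e-06). Prom1, the apical membrane protein prominin 1, differed by -1.59 ± 0.14 (adjusted p = 1.2e-05). The 14 tested mesenchymal and EMT genes did not move together, with 2 higher and 2 lower. The lower count was 1 without S42L replicate 1 or 3, wild-type replicate 1 or 3 or any 1 DHT array. Zeb1, a repressor of E-cadherin, was higher at 0.67, while Vim (0.14) and Fn1 (-0.47) were not called and Cdh2 was not tested.

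Of 11 tested proximal tubule marker genes, 8 were lower and 0 higher, with a median of -0.58. Most of these markers also belong to other lists, so the lists are not independent. Cldn2, Cdh6 and Cdh16 are also in the junction list, and Lrp2, Mme and Anpep in the brush border list. Aqp1 and Slc13a3 are also counted as transporters, and Hnf4a and Pax8 as developmental regulators. Aqp1, the water channel of the proximal tubule, read 9.76, 9.65 and 10.24 in wild-type and 11.09, 11.21 and 11.36 in S42L cells. The wild-type arrays were all lower, by -1.34 ± 0.15 (adjusted p = 6.8e-05). Mme, encoding the brush border peptidase neprilysin, differed by -1.21 ± 0.15 (adjusted p = 0.00013). Lrp2, the endocytic receptor megalin that can take up steroid carriers, read 9.58, 9.48 and 9.75 against 10.26, 10.24 and 10.06. These groups were separate by a small margin, at -0.58 ± 0.11 (adjusted p = 0.0032). Over the brush border and apical endocytosis genes, 6 of 16 were lower and 3 higher, the latter Cltrn, encoding collectrin (1.23), Pdzk1, a scaffold of apical transporters (0.82), and Slc9a3r2 (0.59, not called with the mean of its probes). Of 17 proximal tubule transporters 5 were lower and 0 higher, with 3 lower without any 1 S42L replicate or wild-type replicate 1 and 1 higher without wild-type replicate 3, among them Slc7a9, of the cystine carrier (-0.95 ± 0.12, adjusted p = 0.00012).

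Cilium and flagellum genes had a median of -0.48, with 16 of 28 lower and 0 higher, or 1 higher without wild-type replicate 3. Without S42L replicate 2 the lower count was 11. Beside Nme5, Capsl and Cfap58, the lower members included Rfx2, a transcription factor of ciliary genes, at -1.16 ± 0.11 (adjusted p = 1.7e-05), and intraflagellar transport and Bardet-Biedl genes such as Ift88 (-0.66) and Bbs9 (-0.72). Of 14 kidney developmental regulators 6 were lower and 2 higher, with a median of -0.40, and without any 1 of the testosterone arrays 0 or 1 was higher. Wnt4, a signal that turns kidney mesenchyme into epithelium, read 6.24, 6.42 and 5.91 in wild-type and 7.16, 7.61 and 7.52 in S42L cells. S42L arrays were all higher, at -1.24 ± 0.16 (adjusted p = 0.00018). Hnf4a, the master factor of proximal tubule maturation, was lower by -0.57 ± 0.12 (adjusted p = 0.0051). Hox genes, which mark body position, were mixed, with 3 of 25 higher and 4 lower, the latter 2, 1 and 1 without S42L replicate 1 or 2 or wild-type replicate 1, and their median of 0.03 became -0.13 with common-median scaling.

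Of 28 collagen, laminin and integrin genes 11 were lower and 4 higher, with a median of -0.06. Lama1, a laminin chain undetected on all 3 wild-type arrays, was at least 3.18-fold lower (adjusted p = 1.5e-06), and Col4a3, a chain of basement membrane collagen IV, differed by -1.67 ± 0.26 (adjusted p = 0.00061). Besides Itgb7, Lamb3 (0.89) and Itga3 (0.84) were among the higher members.

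Inflammatory NF-kB targets stood in the opposite direction. Of 25 tested NF-kB targets and chemokines 14 were higher and 4 lower, or 2 lower without S42L replicate 2 or 3, with a median of 0.53. With common-median scaling 11 were higher, with a median of 0.33. Beside Tnfaip2 and Vcam1 the higher genes included the chemokine genes Ccl7 (1.08 ± 0.17, adjusted p = 0.00082) and Cxcl2 (1.06 ± 0.14, adjusted p = 2e-04) and the alarmin Il33 (0.85 ± 0.12, adjusted p = 0.00028). Lcn2, encoding the iron-carrier-binding protein NGAL and an NF-kB target, went the other way. It read 10.85, 10.61 and 10.54 in wild-type and 12.10, 12.14 and 12.07 in S42L cells. All S42L arrays were higher, at -1.43 ± 0.11 (adjusted p = 3.9e-06). Nfkbiz, which encodes a nuclear IκB protein, was also lower at -1.08 ± 0.10 (adjusted p = 1.8e-05).

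Among tubule injury genes, 10 of 22 were higher and 2, Lcn2 and the keratin gene Krt7, were lower. The counts were 6 and 4 with common-median scaling, and 5 were lower without wild-type replicate 2. Havcr1, encoding kidney injury molecule 1, read 12.88, 12.84 and 12.72 in wild-type and 11.26, 11.19 and 11.25 in S42L cells. Replicates agreed closely and the lines did not overlap, at 1.58 ± 0.12 (adjusted p = 3.6e-06). Sox9, a factor of tubule repair, was higher by 0.91 ± 0.10 (adjusted p = 4e-05) and Plaur, the urokinase receptor, by 0.92 ± 0.09 (adjusted p = 3.4e-05). Called interferon-response genes mostly ran against the NF-kB targets, with 8 of 28 lower, 1 higher and a median of -0.24, and 0 higher without S42L replicate 2 or 3 or wild-type replicate 1. The other 19 were not called, and the interferon-inducible gene Gvin1, named above, was higher by 2.15. Ifit3, an antiviral protein gene, read 5.44, 5.55 and 5.23 in wild-type and 7.81, 8.08 and 7.84 in S42L cells. It was low on all wild-type arrays, by -2.50 ± 0.13 (adjusted p = 1.2e-07), and the GTPase genes Irgm2 and Igtp were lower by -1.57 ± 0.14 and -1.39 ± 0.17.

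Growth signalling genes were higher in several places. Several MAP kinase feedback genes are induced by ERK activity and damp it in turn. The whole list had 9 of 18 higher, 1 lower (2 without wild-type replicate 2) and a median of 0.37. Over leaving out each array, 6 to 10 of the 18 were higher. Dusp5, a phosphatase that inactivates nuclear ERK, was higher by 0.99 ± 0.13 (adjusted p = 0.00017), and Dusp4 by 0.96 ± 0.13 (adjusted p = 0.00021). Dusp10 read 8.10, 9.47 and 7.72 in wild-type and 6.84, 6.88 and 6.83 in S42L cells. Its difference of 1.58 ± 0.33 (adjusted p = 0.0044) rested on wild-type values of which replicate 2 stood highest. Among ligands of the EGF receptor family, Hbegf (1.18 ± 0.12, adjusted p = 3.4e-05), Btc (1.13 ± 0.16, adjusted p = 0.00038) and Nrg1 (0.92 ± 0.15, adjusted p = 0.00086) were higher, while the receptor gene Erbb2 (-0.60) and the receptor inhibitor Errfi1 (-0.70) were lower. Lists of FGF and IGF signalling (3 higher and 3 lower of 17), TGF-beta and BMP signalling (5 and 2 of 25) and Wnt, Notch and YAP targets (6 and 4 of 18) had medians of 0.05, 0.06 and 0.10, which turned to -0.08, -0.08 and -0.06 with common-median scaling, where 1, 1 and 3 were higher. The 3 higher FGF and IGF genes were 1, 0 and 0 without S42L replicate 1, 2 or 3 and 1 without wild-type replicate 1 or 3, and the 5 of TGF-beta and BMP signalling were 3 without S42L replicate 3.

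Called genes of DNA replication and mitosis were higher in wild-type cells. For DNA replication the count was 13 of 34 higher and 0 lower, with a median of 0.25, and for mitosis 13 of 28 and 0 lower, with a median of 0.40. Both higher counts were 6 with common-median scaling, where the medians were 0.17 and 0.31, and without wild-type replicate 3 the DNA replication list had 1 lower. Over leaving out each array in turn, 9 to 15 were higher in either list. Mcm3, a subunit of the replicative helicase, read 10.44, 10.72 and 10.49 in wild-type and 9.69, 9.87 and 9.77 in S42L cells. The lines were separate, at 0.77 ± 0.12 (adjusted p = 0.00058). Aurka, a mitotic kinase, was higher by 0.78 ± 0.13 (adjusted p = 0.0013). Of 32 genes of the G1 phase, Rb, p53 and CDK inhibitors, 14 were higher and 2 lower, and 6 were higher with common-median scaling. Ccnd1, encoding cyclin D1, read 14.18, 14.12 and 14.23 against 13.49, 13.37 and 13.40. Wild-type arrays were higher without overlap, by 0.76 ± 0.09 (adjusted p = 0.00015). Cyclin E1 went the opposite way, with Ccne1 lower by -1.19 ± 0.14 (adjusted p = 8.6e-05).

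The E2F family drives replication genes through sites near their starts. In RefSeq promoter windows of the mouse (GRCm38.p6, 250 bases before to 50 after the start), the letters TTTCCCG or TTTGGCG, on either strand, occurred in 14 of 30 replication genes with a window (46.7%) in 4.98% of all 27025 promoters and in 8.46% of the 8416 promoters of tested genes. Of the 11 higher members with a window, 7 held them. The window of Mcm3 at chr1:20820263-20820562 (minus strand), the higher member with the largest difference that held them, carries the letters at 2 places, in capitals:
Mcm3: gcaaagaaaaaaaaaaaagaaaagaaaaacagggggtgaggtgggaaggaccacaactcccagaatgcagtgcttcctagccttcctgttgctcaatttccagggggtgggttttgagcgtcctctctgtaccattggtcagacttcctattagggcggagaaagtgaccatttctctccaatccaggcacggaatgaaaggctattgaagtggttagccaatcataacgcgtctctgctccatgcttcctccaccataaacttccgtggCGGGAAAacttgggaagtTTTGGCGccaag

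The ATF4 amino acid response induces amino acid transport and synthesis when amino acids run short or the eIF2 kinases act. Many members of its list were higher in wild-type cells. Of 28 tested members, 18 were higher and 1, the transporter gene Slc38a2, was lower (-0.41, not called without S42L replicate 1, adjusted p = 0.058), with a median of 0.46. With common-median scaling 13 were higher, with a median of 0.42. Cth, encoding the cysteine-producing enzyme cystathionine gamma-lyase, read 8.42, 8.74 and 8.76 in wild-type and 6.80, 6.59 and 6.77 in S42L cells. All wild-type arrays were higher, by 1.92 ± 0.14 (adjusted p = 1.6e-06). Trib3, a pseudokinase that feeds back on ATF4, read 11.94, 11.68 and 11.83 against 10.31, 10.41 and 10.44. Here too the lines were apart, at 1.43 ± 0.10 (adjusted p = 1.5e-06). Ddit3, encoding the stress factor CHOP, read 10.02, 9.97 and 10.00 against 8.78, 8.83 and 8.80. The replicates differed little and the lines by 1.19 ± 0.12 (adjusted p = 2.1e-05). Slc1a5, a glutamine transporter, was higher by 1.38 ± 0.14 (adjusted p = 4e-05) and Chac1, which breaks down glutathione, by 1.13 ± 0.11 (adjusted p = 2.2e-05).

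Cytosolic tRNA synthetases, which ATF4 also induces, had 9 of 18 higher and 0 lower (1 without wild-type replicate 1), with a median of 0.30. The higher count was 5 with common-median scaling and also 5 without S42L replicate 2. Eprs (0.71 ± 0.16, adjusted p = 0.0073) and Wars (0.69 ± 0.13, adjusted p = 0.0027) were the highest of them. ER chaperones, the ATF6 and XBP1 branch of the stress response, did not follow, with 3 of 23 higher, 2 lower and a median of -0.15. Ero1b, an oxidase of the ER (1.10 ± 0.12, adjusted p = 4.3e-05), and Ern1, the stress sensor IRE1 (0.73), were among the higher members, and Sdf2l1 (-0.61) and Pdia6 (-0.50) were the lower ones. With common-median scaling 5 were lower. Heat shock chaperones had 4 of 23 higher and 2 lower, but 2, 1 and 2 higher without S42L replicate 1, 2 or 3, 1 lower without S42L replicate 1, and 1 higher with common-median scaling.

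The letters TGATGCA, the core of the composite site of C/EBP and ATF4, were found on either strand in 6 of 25 promoter windows of the ATF4 list (24.0%), in 3.2% of all promoters and in 1.96% of those of tested genes. Of the 16 higher members with a window, 5 held them. The letters TGACGTC of the cAMP response element occurred in 0 of the 25 windows, in 3.33% of all promoters and in 5.72% of those of tested genes. The 2 higher members with the largest differences that held TGATGCA were Chac1 (chr2:119350992-119351291, plus strand) and the cystine transporter gene Slc7a11 (chr3:50443564-50443863, minus strand), the latter higher by 0.85 ± 0.12 (adjusted p = 0.00033). Capitals mark the letters, read on either strand:
Chac1: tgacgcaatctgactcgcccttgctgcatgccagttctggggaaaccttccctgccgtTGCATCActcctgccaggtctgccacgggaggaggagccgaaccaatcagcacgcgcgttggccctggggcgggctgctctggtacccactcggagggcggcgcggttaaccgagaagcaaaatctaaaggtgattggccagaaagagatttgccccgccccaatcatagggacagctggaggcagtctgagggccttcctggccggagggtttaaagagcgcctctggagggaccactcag
Slc7a11: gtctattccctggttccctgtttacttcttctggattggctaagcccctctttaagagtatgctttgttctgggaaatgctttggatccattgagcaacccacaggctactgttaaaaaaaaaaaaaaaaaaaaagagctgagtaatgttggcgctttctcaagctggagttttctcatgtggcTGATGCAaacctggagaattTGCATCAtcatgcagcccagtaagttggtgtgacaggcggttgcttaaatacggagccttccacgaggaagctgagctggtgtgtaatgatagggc

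Antioxidant and metabolic genes divided by function. NRF2 and glutathione genes had 13 of 35 higher and 5 lower. The higher count was 7 with common-median scaling and 8, 8 and 7 without S42L replicate 1, 2 or 3. Nqo1, a quinone reductase and a standard NRF2 target, was higher by 1.09 ± 0.12 (adjusted p = 5.8e-05) and the export pumps Abcc2 and Abcc4 by 1.11 ± 0.14 and 1.17 ± 0.12. Gpx3, the secreted glutathione peroxidase made by the proximal tubule, read 10.52, 10.49 and 10.49 in wild-type and 11.78, 11.91 and 11.87 in S42L cells. It was lower on all wild-type arrays, by -1.35 ± 0.09 (adjusted p = 1.5e-06). Sterol and fatty acid synthesis genes had 13 of 31 higher and 3 lower. Acss2, which makes acetyl-CoA from acetate (0.93 ± 0.12, adjusted p = 0.00016), Insig2 (0.73 ± 0.09, adjusted p = 0.00018) and Srebf2, the regulator of sterol genes (0.68 ± 0.10, adjusted p = 0.00058), were higher. That count of 13 was 5 with common-median scaling, 6 and 8 without S42L replicate 2 or 3 and 8 without wild-type replicate 1 or 2.

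Fatty acid oxidation genes had 5 of 28 lower, or 3 without S42L replicate 2, and 0 higher, and Ppargc1a, a coactivator of mitochondrial genes, was lower by -0.77, though not called without S42L replicate 2 (-0.59, adjusted p = 0.066). Lysosome genes had 9 of 34 lower and 3 higher, with 5 lower without S42L replicate 1 and 1 higher without S42L replicate 2 or 3 or wild-type replicate 1. Ctsa, encoding cathepsin A, read 8.11, 8.58 and 7.34 in wild-type and 9.86, 9.74 and 9.68 in S42L cells. The wild-type values were scattered and all lower, at -1.75 ± 0.24 (adjusted p = 0.00025). Zinc handling was mixed beyond Slc39a4. The importer Slc39a14 was higher by 1.15 ± 0.14 (adjusted p = 0.00011), while the exporter Slc30a1 (-0.80 ± 0.14, adjusted p = 0.0016) and the metallothionein gene Mt2 (-1.14 ± 0.17, adjusted p = 0.00043), both induced by zinc through MTF1, were lower.

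Large protein complexes had few calls. Respiratory chain subunits had 2 of 42 higher, Cox6a2 among them, and 1 lower. Proteasome subunits had 1 of 29 called, and their median of 0.07 became -0.01 with common-median scaling. Ribosomal proteins had 1 of 28 higher and 2 lower, among them Rpl22, lower by -0.75. All 3 lists lay below the 25.9% of genes called over the array, and glycolysis enzymes, at 3 of 22, lay below it too. Counts this small moved by 1 or 2 genes with single arrays, among them S42L replicates 2 and 3 and wild-type replicates 1 and 2 for ribosomal proteins, S42L replicate 2 and wild-type replicates 1 and 2 for the respiratory chain, S42L replicate 2 and wild-type replicates 2 and 3 for glycolysis and wild-type replicate 3 for the proteasome. Several other lists were called about as often as the 25.9% of all genes. ER chaperones (21.7%), steroid signalling coregulators (23.1%), annexins and S100 proteins (25%), heat shock chaperones (26.1%) and polyamine genes (26.7%) were among them. So were steroid-converting enzymes (27.8%), Hox genes (28%), TGF-beta and BMP signalling (28%) and glycosyltransferases (28.9%). Of fatty acid oxidation genes 17.9% were called, all lower, beside 14.1% of all genes.

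The remaining lists had members in both directions. Drug and retinoid metabolism genes had 7 of 20 higher, with Adh7 and Rdh12 at the top and Cyp24a1, the vitamin D hydroxylase, at 1.51, and 3 lower, with Cyp2d22 and Fmo1, a flavin monooxygenase (-1.22), at the bottom, and 5 lower without wild-type replicate 3. Glycosyltransferases had 6 of 45 higher and 7 lower, where the sialyltransferase genes St3gal1 (1.05) and St3gal6 (-1.44) stood on opposite sides. Cyclophilins had 4 of 12 higher and 2 lower, Ppic the lowest, with Ppif, the mitochondrial member, at 0.69, and 1 lower without S42L replicate 1 or 3 or wild-type replicate 3. Annexins and S100 proteins had 5 of 20 higher and 0 lower, with 2 lower without wild-type replicate 2 and 3 higher and 2 lower with common-median scaling. Immediate early factors had 5 of 20 higher, led by Egr3 (1.31), and 2 lower. Without S42L replicate 1, 2 or 3 these counts were 3 and 1, 2 and 0, and 2 and 1, without wild-type replicate 1 or wild-type DHT replicate 3 the higher count was 3, and with common-median scaling 2 were higher and 4 lower. Clock genes had 4 of 16 higher and 1 lower, with 2 higher without S42L replicate 2 or 3 or wild-type replicate 1 and 7 without wild-type replicate 3. Nuclear receptors had 1 of 19 higher, 4 without wild-type replicate 3, and 6 lower, and polyamine and arginine genes 3 of 15 higher, with the mitochondrial arginase gene Arg2 among them, and 1 lower, or 1 and 3 with common-median scaling.

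**Figure D2:**
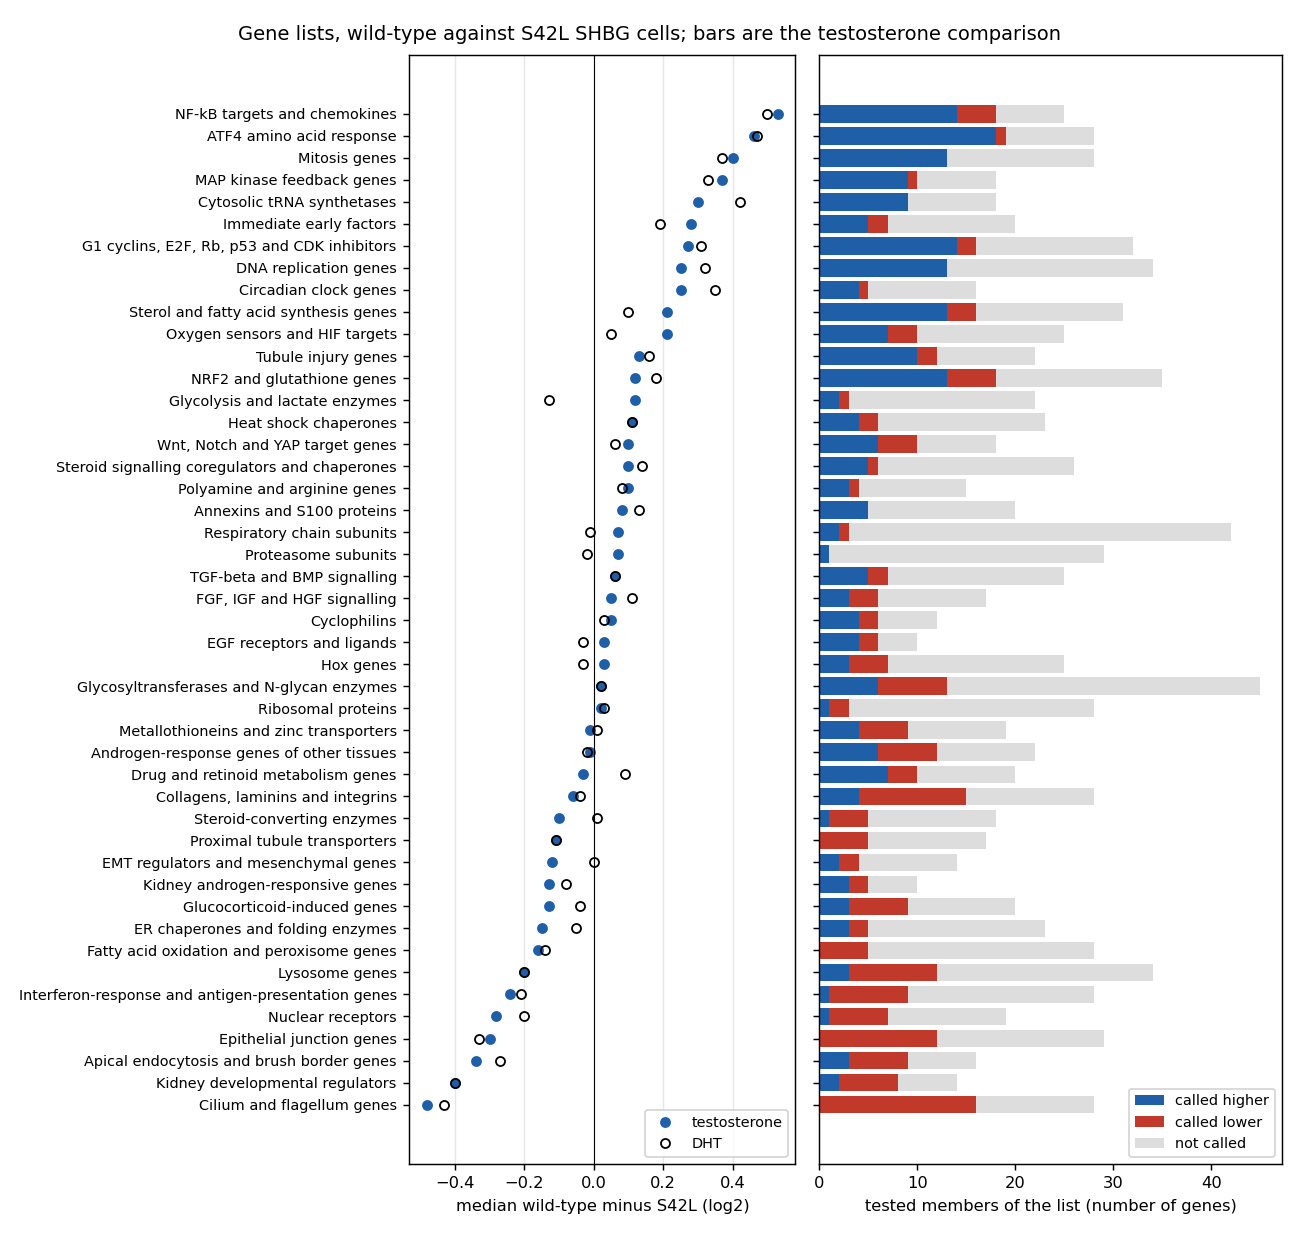
Gene lists ordered by their median difference. The left panel gives the median wild-type minus S42L difference (log2) under testosterone (filled) and DHT (open); the right panel gives the number of tested members called higher, lower or not called under testosterone. NF-kB targets, ATF4 targets and mitosis genes lie near the top, at 0.53, 0.46 and 0.40, and cilium genes near the bottom, at -0.48.

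Known androgen-regulated genes showed no common direction. Of 10 tested androgen-responsive genes of the mouse kidney 3 were higher and 2 lower, or 1 lower without any 1 testosterone array other than wild-type replicate 3 or without S42L DHT replicate 2 or 3 or any 1 wild-type DHT array. Timd2, a ferritin receptor, read 7.37, 7.01 and 7.38 in wild-type and 4.90, 5.48 and 5.64 in S42L cells. It was higher on every wild-type array, by 1.91 ± 0.20 (adjusted p = 4e-05), and was detected on 2 of 3 S42L arrays. Abcc4 was higher by 1.17, and Cyp4b1, a cytochrome P450, lower by -1.25 ± 0.13 (adjusted p = 3.6e-05). The classical markers gave no call. Odc1, ornithine decarboxylase, differed by -0.05 ± 0.13 (adjusted p = 0.8), and Gusb, beta-glucuronidase, by -0.20 ± 0.12 (adjusted p = 0.24), where 1 of its 3 other probes was called higher (0.39, adjusted p = 0.028). Kap was detected on 0 of 12 arrays.

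Androgen-response genes known from other tissues had 6 of 22 higher and 6 lower, with 3 higher under common-median scaling. Tmprss2, a protease gene that is an androgen target in prostate, was lower by -1.34 ± 0.12 (adjusted p = 1.3e-05), and Klf9 was higher by 0.64 ± 0.11 (adjusted p = 0.0012). Fkbp5, an androgen and glucocorticoid target, read 9.28, 9.21 and 9.35 in wild-type and 9.22, 9.20 and 9.37 in S42L cells. The lines overlapped, with a difference of 0.01 ± 0.11 (adjusted p = 0.94). Of steroid signalling coregulators and chaperones 5 of 26 were higher and 1 lower, Fhl2, a transcriptional coactivator, being highest at 0.97 ± 0.12 (adjusted p = 0.00012). The higher count was 3 without S42L replicate 2 or 3 and with common-median scaling, where their median of 0.10 was 0. Among steroid-converting enzymes 4 of 18 were lower, including Sult1d1, a sulfotransferase (-1.25 ± 0.11, adjusted p = 1.3e-05), and Hsd17b11 (-0.79 ± 0.12, adjusted p = 0.00075), and 1 was higher, or 2 without any 1 wild-type replicate and 0 with common-median scaling. Glucocorticoid-induced genes, of interest because the medium held dexamethasone, had 3 of 20 higher and 6 lower.

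Most differences recurred in the DHT-treated cells, which are other arrays of the same 2 lines. There 2589 genes were called (25.0%), and of the 2676 genes called under testosterone 1924 were called in the same direction, 750 were not called and 2 were called in the opposite one. Across 10340 genes the differences under both androgens had a Pearson r of 0.882, given as a description, since the points share the lines and genes are not independent. Of the 401 genes at least 2-fold apart under testosterone, 383 were called in the same direction under DHT. The difference between both differences, the interaction, was called for 1 of 19480 probes (0.00513%) and so for 1 of 10340 genes (0.00967%), while 905 probes had an unadjusted p below 0.05. The median half-width of its 95% confidence interval was 0.446 on the log2 scale, and that of the testosterone difference 0.316.

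**Figure D3:**
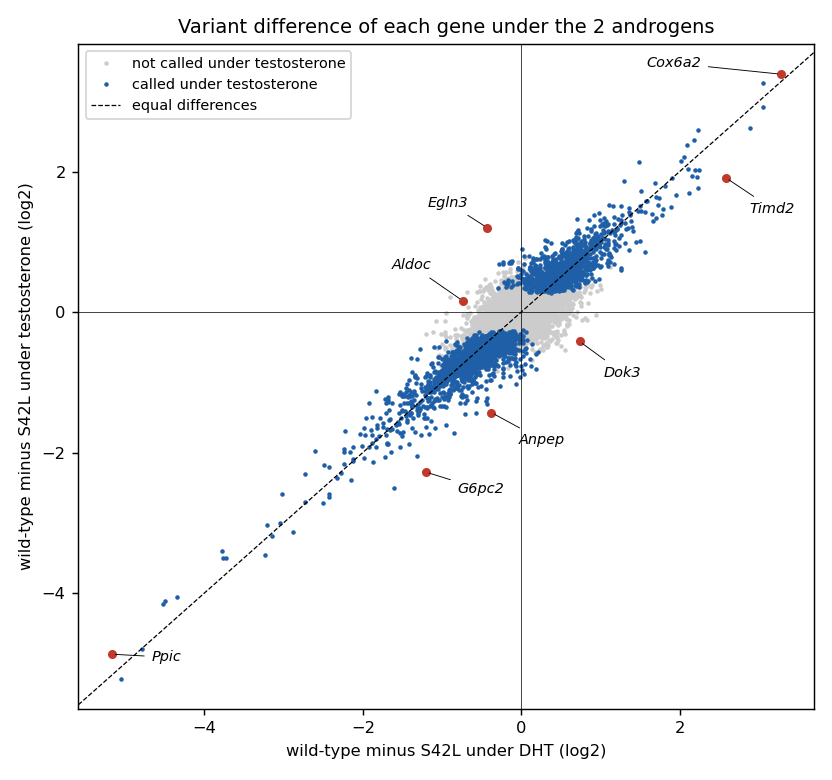
Wild-type minus S42L difference (log2) of each of 10340 genes under DHT (x axis) and testosterone (y axis), with genes called under testosterone in blue and the line of equal differences dashed. Most called genes lie along the line, and Egln3 stands off it, at 1.20 under testosterone and -0.43 under DHT; the other names mark genes given in the text or at the edges.

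The 1 gene with a called interaction was Egln3, which encodes the oxygen-sensing prolyl hydroxylase PHD3. In cells with oxygen the EGLN enzymes hydroxylate the alpha subunits of hypoxia-inducible factor (HIF) and so mark them for destruction, and HIF in turn induces Egln3 and Egln1. Under testosterone Egln3 read 9.04, 8.93 and 9.07 in wild-type and 7.71, 7.78 and 7.95 in S42L cells. Wild-type cells were higher without overlap, by 1.20 ± 0.10 (adjusted p = 7e-06). Under DHT it read 7.99, 8.00 and 8.00 in wild-type and 8.40, 8.54 and 8.33 in S42L cells. Now the wild-type arrays were the lower ones, at -0.43 ± 0.10 (adjusted p = 0.0092), and the interaction was 1.63 ± 0.14 (adjusted p = 0.0014). A second, dimmer Egln3 probe, detected on 7 of 12 arrays, gave 0.28 (adjusted p = 0.3) under testosterone and an interaction of 0.08, so the result rests on 1 probe.

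Several HIF targets and Egln1 were also higher in wild-type cells under testosterone. Of 25 tested oxygen sensors and HIF targets 7 were higher and 3 lower under testosterone (4 and 4 with common-median scaling), against 2 higher and 5 lower under DHT. P4ha1, a collagen prolyl hydroxylase and HIF target, read 10.19, 10.32 and 10.00 in wild-type and 9.28, 9.09 and 9.20 in S42L cells. It was higher by 0.98 ± 0.15 (adjusted p = 0.00066) without overlap, and its second probe by 0.27 (adjusted p = 0.1). Egln1, encoding the main oxygen sensor PHD2, was higher by 0.70 (adjusted p = 0.011) and not called without S42L replicate 2 (0.62, adjusted p = 0.051) or at its 2 other probes (0.47 and 0.36). Ddit4, a stress-induced inhibitor of mTOR, read 10.88, 11.05 and 11.15 against 10.33, 10.35 and 10.26. The wild-type arrays were higher, by 0.71 ± 0.12 (adjusted p = 0.0012), as for Slc2a1, encoding the glucose transporter GLUT1, by 0.57 ± 0.11 (adjusted p = 0.003). The HIF targets Fam162a (-0.49) and Ndrg1 (-0.54) were lower, as was Egln2, encoding PHD1 (-0.54, not called without S42L replicate 1 or 2 or wild-type replicate 3, adjusted p = 0.092, 0.14 and 0.12, or without wild-type DHT replicate 2 or 3, adjusted p = 0.051 and 0.05). The 2 genes called higher under DHT were P4ha1 (0.51, adjusted p = 0.029) and Vegfa (0.34, adjusted p = 0.033, and 0.41 under testosterone). Ddit4 (0.34), Slc2a1 (0.26), Ier3 (0.20) and Egln1 (0.12) were not called under DHT but kept their sign. Among the 7 genes higher under testosterone only Egln3 changed sign under DHT, and only its interaction was called.

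Over the 25 genes the interaction was above 0 for 18, with a median of 0.14, and over 22 glycolysis and lactate enzymes it was above 0 for 17, with a median of 0.27. For all 10340 genes it was above 0 for 5051, with a median of 0. These counts are a description, since genes are not independent, the first list includes Egln3 and both lists share Slc2a1 and Pdk1. No member but Egln3 had a called interaction. Aldoc, encoding aldolase C, read 10.52, 10.54 and 10.40 in wild-type and 10.37, 10.39 and 10.23 in S42L cells under testosterone. Its testosterone difference of 0.16 was not called (adjusted p = 0.28), the DHT difference was -0.74, and the interaction of 0.89 had an adjusted p of 0.19. Eno2, encoding enolase 2, differed by 0.41 (adjusted p = 0.035) under testosterone, not called without S42L replicate 1 (0.34, adjusted p = 0.13) or 2 (adjusted p = 0.086) or wild-type replicate 3 (0.29, adjusted p = 0.093), and by -0.20 under DHT.

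HIF binds the letters ACGTG, which on either strand were present in 11 of 21 promoter windows of the HIF list (52.4%), in 19.7% of all promoters and in 26.1% of the 8416 promoters of tested genes. These letters also form part of the E-box CACGTG. Of the 7 higher members 6 held them, and of the 2 lower members with a window 2. The 2 higher members with the largest differences that held them were Egln3 (chr12:54203825-54204124, minus strand) and P4ha1 (chr10:59323046-59323345, plus strand), with the letters in capitals on either strand:
Egln3: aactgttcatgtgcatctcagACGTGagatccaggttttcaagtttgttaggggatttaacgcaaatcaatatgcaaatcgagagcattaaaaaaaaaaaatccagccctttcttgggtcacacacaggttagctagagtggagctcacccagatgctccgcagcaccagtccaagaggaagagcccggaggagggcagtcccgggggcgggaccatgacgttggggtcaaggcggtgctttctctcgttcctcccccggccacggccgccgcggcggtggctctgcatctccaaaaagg
P4ha1: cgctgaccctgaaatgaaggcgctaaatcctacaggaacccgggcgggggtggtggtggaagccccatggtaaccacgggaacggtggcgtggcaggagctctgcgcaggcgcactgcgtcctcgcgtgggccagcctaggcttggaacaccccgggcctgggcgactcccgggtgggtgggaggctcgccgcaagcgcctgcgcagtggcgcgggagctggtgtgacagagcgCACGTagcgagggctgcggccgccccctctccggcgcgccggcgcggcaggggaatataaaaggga

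**Figure D4:**
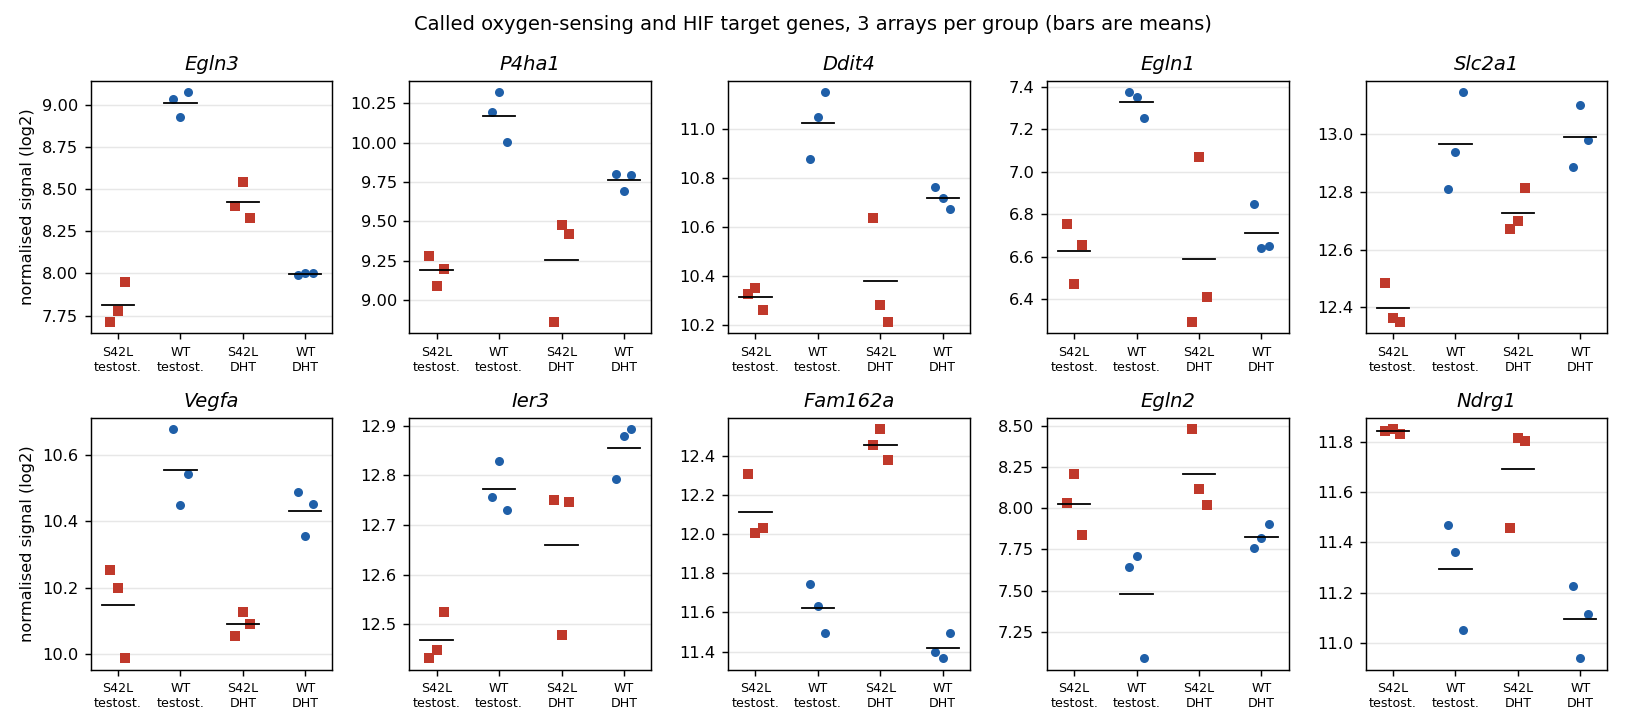
Normalised log2 signal of the 10 oxygen-sensing and HIF target genes called under testosterone, on 3 arrays in each of the 4 groups; squares are S42L and circles wild-type arrays, and bars are group means. Egln3 is highest in wild-type cells under testosterone, between 8.93 and 9.07, and lies between 7.99 and 8.00 in the same line under DHT; vertical axes differ between genes and do not start at 0.

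Some transcripts were strong under testosterone and weak under DHT without a called interaction, so a difference between both androgens is not shown for them. Of the 401 genes at least 2-fold apart, 17 were not called under DHT, and they are named here after their values were seen. Anpep, encoding the brush border peptidase aminopeptidase N, read 4.64, 5.30 and 4.87 in wild-type and 6.18, 6.50 and 6.43 in S42L cells under testosterone. The wild-type arrays were lower, by -1.43 ± 0.20 (adjusted p = 0.00033), and 1 of 3 detected it. Under DHT the difference was -0.38 (adjusted p = 0.21), and the interaction of -1.06 had an adjusted p of 0.72. Sod3, encoding the extracellular superoxide dismutase, read 6.41, 6.53 and 5.69 against 7.45, 7.61 and 7.90. It was lower on all wild-type arrays by -1.44 ± 0.22 (adjusted p = 0.00061) and by -0.57 under DHT (adjusted p = 0.084). Ugt2b36, a glucuronosyltransferase gene, was lower by -1.02 ± 0.17 (adjusted p = 0.0012) and differed by -0.07 under DHT.

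Among the same 17 genes, Tom1l2 (-1.30), Pbld2 (-1.30), Arhgdib (-1.27), Prodh2 (at least 1.66-fold lower), Foxa3 (-1.08), Pabpc1l (-1.06), Slc22a18 (-1.06), Pipox (-1.05), Thra, the thyroid hormone receptor alpha gene (-1.05), and Ppp1r13b (-1.01) were lower. Sdcbp2 (1.03), Cdhr2 (1.04), Prap1 (at least 1.46-fold) and Matn1 (at least 1.52-fold) were higher. Their differences under DHT had the same sign and adjusted p between 0.05 and 0.82. Thra was not called without S42L replicate 3 (-0.88, adjusted p = 0.067) or wild-type replicate 3 (-0.76, adjusted p = 0.054). Ifit3, called under both androgens, differed by -2.50 under testosterone and -1.61 under DHT, with an interaction of -0.89 (adjusted p = 0.49). G6pc2, undetected in wild-type cells under both, was at least 3.97-fold and at least 1.8-fold lower. Dok3, an adaptor protein gene, was called lower under testosterone (-0.42, adjusted p = 0.021) and higher under DHT (0.74, adjusted p = 8e-04), yet its interaction of -1.15 had an adjusted p of 0.12. Dok3 was detected on 1 of 3 wild-type arrays and was not called without S42L replicate 1 (-0.38, adjusted p = 0.074) or 2 (-0.40, adjusted p = 0.073) or wild-type replicate 2 (-0.34, adjusted p = 0.063).

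Called genes were not spread evenly over the chromosomes, a pattern noticed after the data were seen and given without a test. On chromosome 14, 144 of 328 tested genes were higher (43.9%) and 13 lower, with a median of 0.33, and 83.2% of its genes lay above 0. On chromosome 16, 4 of 325 were higher and 152 lower (46.8%), with a median of -0.37, and 87.1% lay below 0. The medians of these chromosomes under DHT were 0.34 and -0.36. Over chromosome 14 the median relative to each gene's mean over the 6 testosterone arrays was 0.178, 0.142 and 0.245 on the wild-type arrays and -0.186, -0.190 and -0.174 on the S42L arrays. For chromosome 16 it was -0.217, -0.239 and -0.167 against 0.210, 0.197 and 0.193. Every array thus followed its line, without overlap. In both cases the shift ran along the whole chromosome, with medians between 0.19 and 0.43 in 5 consecutive parts of chromosome 14 and between -0.45 and -0.31 in those of chromosome 16.

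On other chromosomes shifts covered a part or were smaller. On chromosome 4 the first 3 of 5 consecutive parts had medians of 0.01, 0.02 and 0.04, and the last 2 had -0.28 and -0.46, with 54 and 70 of 130 genes lower. The middle 3 parts of chromosome 15 had medians of 0.24, 0.25 and 0.16 between outer parts at -0.09 and -0.12, and the last part of chromosome 12 had 0.30. On chromosome 2 a stretch of 78 consecutive windows of 31 genes had running medians between -0.44 and -0.20, and between -0.40 and -0.15 under DHT. Chromosomes 17 and 19 were shifted along their length, but by less, with medians of -0.13 and 0.12. Their 5 consecutive parts had medians between -0.14 and -0.09 on chromosome 17 and between 0.08 and 0.15 on chromosome 19. The medians of the remaining chromosomes lay between -0.10 and 0.10. Together chromosomes 14 and 16 held 653 of the genes, of which 47.9% were called, against 24.4% elsewhere. The lists differ in how many members lie there. The ATF4, tRNA synthetase, mitosis and proximal tubule marker lists have 0 tested members on both, the NF-kB list has 1 and the cilium list 1 on each. Without these chromosomes the NF-kB list had 14 higher and 3 lower, the cilium list 0 and 15, and the junction list 0 and 11. Of 29 proteasome genes 6 lie there, with the 1 called, and of 45 glycosyltransferases 6, without which 6 were higher and 3, instead of 7, lower. Without them cyclophilins had 3 higher and 1 lower. Genes on these chromosomes that were named above include Slc39a14, Abcc4 and Anxa8 (chromosome 14, higher) and Tmprss2, Nfkbiz and Fam162a (chromosome 16, lower). Whether such shifts come with the variant or with the clone cannot be told apart.

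**Figure D5:**
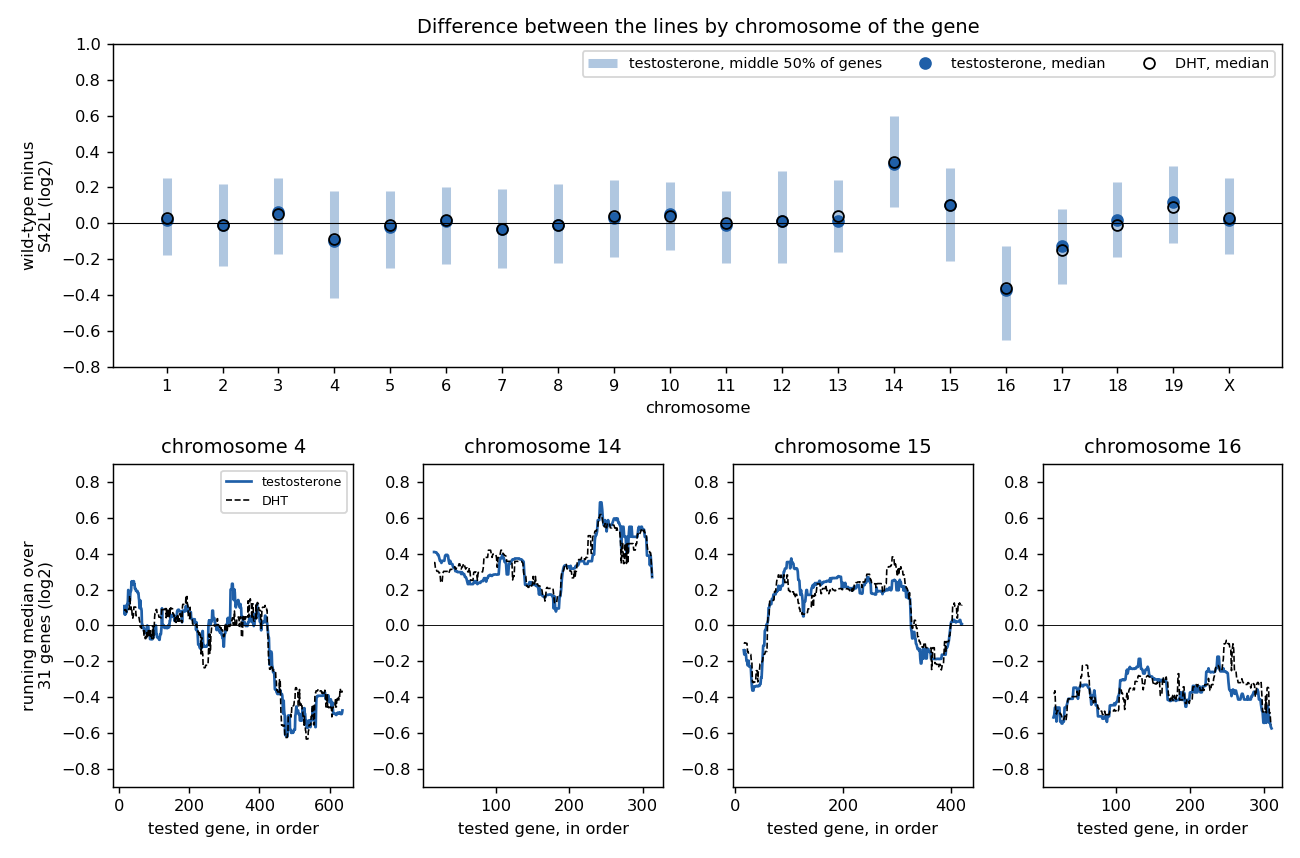
Top, median wild-type minus S42L difference (log2) of the tested genes of each chromosome under testosterone (filled, bar over the middle 50% of genes) and DHT (open). Bottom, running median over 31 tested genes in chromosome order for 4 chromosomes, under testosterone (solid) and DHT (dashed). Chromosome 14 lies at 0.33 and chromosome 16 at -0.37 over their length, and chromosome 4 is near 0 before its last 2 of 5 parts.

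Markers of other cell types were in part undetected, and those called were lower in wild-type cells except Fbln2 and Gata3. Of 14 fibroblast genes on the array 8 were undetected on all 6 arrays, among them Pdgfra, Col1a2 and Lum, and 1, Dcn, was detected on all. The summed normalised signal of the 3 tested fibroblast genes was 139 to 165 in wild-type and 1470 to 1760 in S42L cells. Most of the sum in S42L cells was Dcn alone, and the median difference of the 3 genes was 0.70. In wild-type cells Dcn was lower and Fbln2, encoding fibulin 2, higher (0.71, adjusted p = 0.0037), with a second fibroblast gene called higher without wild-type replicate 3. Of 7 immune genes 5 were undetected on all 6 arrays, including Ptprc and Cd3e, and the 2 tested ones were lower, Csf1r by -1.09 and Coro1a, undetected on all 3 wild-type arrays, at least 1.14-fold, though Coro1a was not called without any 1 of the 6 testosterone arrays (adjusted p from 0.058 to 0.11) or S42L DHT replicate 2 (adjusted p = 0.056), with sums of 342 to 456 against 792 to 928. Endothelial Cdh5, Emcn and Plvap were undetected, while Flt1 and Egfl7 were lower, with sums over 4 genes of 654 to 931 against 1340 to 1460. Podocyte Nphs1 and Ptpro were undetected, and Synpo, encoding the actin-binding protein synaptopodin, was lower by -2.06 ± 0.10 (adjusted p = 1e-07), with 2 genes lower without S42L DHT replicate 1 or 2 or wild-type DHT replicate 3, with sums over 3 genes of 479 to 641 against 1020 to 1070. Of 18 distal nephron genes 5 were undetected, and of the 11 tested 4 were lower, Scnn1a by -2.60 ± 0.19 (adjusted p = 1.9e-06), and 1 higher, Gata3, not called without any 1 testosterone array other than wild-type replicate 1 or without S42L DHT replicate 2 or wild-type DHT replicate 1, with sums of 4910 to 5100 against 6090 to 6640. The 11 proximal tubule markers summed to 9980 to 10600 in wild-type and 19800 to 20600 in S42L cells. The part of other cell types in these differences was not tested.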

How the data were processed

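Total RNA of the cells was hybridised to Illumina Mouse WG-6 v2.0 arrays after labelling as biotinylated cRNA. The authors deposited, for each array and probe, a non-normalized intensity and a detection p-value per the file headers, and the submitters' processing notes name BeadStudio. Here the deposited intensities were corrected for background by way of their detection p-values, quantile-normalized and log2-transformed with an offset of 16 (neqc, limma 3.58.1, R 4.3.3). The authors' processed values served as an alternative. Probes with a detection p below 0.05 on at least 3 of 12 arrays were tested. A linear model over all 12 arrays with empirical Bayes moderation gave the difference under each androgen and their interaction, with Benjamini-Hochberg adjustment over 19480 probes and a threshold of 0.05. A gene is represented by its tested probe with the highest mean. The test was checked on simulated data. The precision is limited by the number of arrays.

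Members and lists were chosen with earlier results of these data known. Naming rules picked the 12 highest and 12 lowest called genes, the 6 largest bounds in each direction and genes called in opposite directions. They also picked the 3 highest and 3 lowest called members of each list and a set of fixed genes. Not every gene so picked is given in the text, and for some lists none is. Hnf4a, Vim, Fn1, Rfx2, Ift88, Bbs9, Cxcl2, Il33, Sox9, Dusp4, Chac1, Slc7a11, Nqo1 and Aldoc were chosen after their values were seen. A bound sets the bright group's mean against the dim group's detection floor or its own signal, whichever was higher. Chromosomes and promoters are those of RefSeq.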

Additional observations from a re-analysis of the deposited data

Results flagged for a closer look

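Egln3 drew attention because the difference between wild-type and S42L cells was not the same under both androgens. The testosterone difference minus the DHT difference was 1.63 ± 0.14 on the log2 scale (limma interaction, adjusted p = 0.0014). All 3 wild-type arrays lay above all 3 S42L arrays under testosterone, and below them under DHT. Testosterone and DHT arrays lay on separate chips, so a chip effect on each line enters the interaction only where it differs between array positions, which was not tested. The second, dimmer Egln3 probe had an interaction of 0.08, and the mean of both probes 0.85 (adjusted p = 0.2).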

How the results depend on the processing

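Over leaving out each array in turn, the probes called under testosterone numbered 3107 to 4841, those higher 1427 to 2382, those lower 1680 to 2459, the genes at least 2-fold apart 397 to 434, the probes called under DHT 3256 to 5494 and the interaction 1 to 1, with Egln3 at 1.57 to 1.70. The lowest count of higher probes, 1427, came without S42L testosterone replicate 2. Higher probes numbered 899 with common-median scaling and 1488 with the 6 testosterone arrays alone. Without background correction 101 genes differed at least 2-fold. The interaction was called for 2 probes without background correction (Egln3 and Aldoc), with the authors' values (Egln3 and Dok3, the latter -1.83) and with trend and robust moderation (Egln3 and Aldoc), and Egln3's fell to 0.85 (adjusted p = 0.2) with the mean of its probes. With the replicate number as a block, 4391 probes were called under testosterone, 2084 higher and 2307 lower, 401 genes at least 2-fold, 4268 probes under DHT and 1 in the interaction (Egln3 1.63, adjusted p = 0.013). The numbers did not pair the samples, with correlations of deviations from -0.047 to 0.121. Single genes were followed for the 229 tested genes that the naming rules picked, 225 of them called. Most were picked for large differences, so they do not stand for all 2676 called genes. Signs changed for 3 of the 229 genes, each of them not called: Fkbp5 (-0.14 with common-median scaling, -0.02 to 0.07 over leaving out each array), Gusb (0.12 with the mean of its probes) and Odc1 (-0.18 to 0.03 over leaving out each array, 0.03 without wild-type testosterone replicate 2). Of the 225 called genes among the 229, 64 lost the call in at least 1 of 21 settings, 24 of them without wild-type testosterone replicate 3. Some list counts given above without other settings also moved with single arrays, as for the ATF4 list, where 14 to 18 members were higher. With 3 arrays a group, differences below the median interval of 0.316 were mostly not detectable.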
